A study of Homo sapiens with 2 samples.

Results

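The autophagy machinery was examined in the established human melanoma line A375, with and without a hairpin against BMI1. The list held 39 genes with known roles in autophagy, and 37 of them carried a symbol among the 16583 genes named on the array. ULK3 and ATG9B were not named there, so they have no intensities here and enter only the promoter counts. The 37 genes were sorted by step into initiation, nucleation, membrane supply, conjugation, the ATG8 family, cargo receptors and the transcription factor TFEB.

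Macroautophagy encloses cytoplasm in a double membrane and delivers it to the lysosome. The ULK1 kinase complex starts it, and a class III phosphatidylinositol 3-kinase complex built on Beclin 1 marks the growing membrane with PI3P. WIPI proteins then bind PI3P, and ATG2 and ATG9 handle the lipid of the growing membrane. A pair of ubiquitin-like reactions attaches ATG8 proteins (LC3 and GABARAP) to the membrane, where receptors such as p62 dock cargo. In melanoma, as in other solid tumours, autophagy is known both to restrain early growth and to sustain established tumours under stress.

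The 2 groups were A375 cells that received an empty lentivirus and A375 cells that received a lentivirus coding for a BMI1 short hairpin, grown under the same conditions with serum. Each group had 1 single-colour array, so values carry no error between replicates, and no test between the groups or p-value was computed. The control virus carried no hairpin, and the labels do not say whether the cells were pools or clones. BMI1, a subunit of Polycomb repressive complex 1, read 68.6 with the empty vector and 25.8 with the hairpin (log2 ratio -1.41), dim on both arrays. Both readings were under the brightness limit defined below, where 7.83% of all 7662 named genes were 2-fold lower. The row SD, also defined below, was 0.80 at this level. How far BMI1 was reduced thus cannot be settled from this 1 row. Of the melanocyte lineage markers, SOX10 (7608 and 6889) and S100B (1123 and 1452) were bright, while MITF, PMEL, MLANA, TYR and TYRP1 lay under the brightness limit on both arrays. None of the 4 named leukocyte and 6 fibroblast and endothelial markers passed that limit. The epithelial markers EPCAM and CDH1 were dim, but the keratin genes KRT8, KRT18 and KRT5 were above the limit.

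Intensities are the deposited linear values, and a ratio is log2 of shBMI-1 over empty vector. A gene was taken as bright enough if it reached the median of all rows (131.2 for the empty vector, 129.8 for shBMI-1) on at least 1 array. The row SD, the spread of ratios among different array rows of the same gene, was the only error that could be measured. It fell with signal, from 0.72 to 0.80 for genes with a mean intensity under 128, through 0.60 up to 256, 0.42 up to 512, 0.30 up to 1024 and 0.25 up to 2048, to 0.23 and 0.20 in the brightest bands. It was taken from all named genes of like level with several rows, since 35 of the 37 autophagy genes had 1 row each. MAP1LC3A and NBR1, which had several rows, are among the genes it was taken from. Part of the row SD may be transcripts that truly differ. Probes differ in efficiency, so levels are compared between arrays and not between genes.

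Most of the autophagy genes with a usable signal differed by less than 1.5-fold between the cultures. Of the 37 genes, 26 passed the brightness limit, 24 of them on both arrays and 2 (PIK3C3 and ATG16L2) on the shBMI-1 array alone. Past 2-fold were 1 gene higher with the hairpin, WIPI2, and 1 gene lower, AMBRA1. Across all 8921 named genes above the limit, 3.23% were 2-fold higher and 3.55% 2-fold lower, 6.78% together, so a count of 2 among 26 is near the background. Within 1.5-fold lay 22 of the 26, beside 81.4% of all genes above the limit. The median ratio of the 26 genes was 0.21, with 17 above 0 and 9 below (16 above 0 after quantile or loess normalization), and the median of all genes above the limit was 0.09, with 60.0% above 0. The gap between these medians depended on the limit: with the limit at the 75th percentile, 14 autophagy genes had a median of 0.09 and all genes had 0.09 as well. Over the 24 genes that passed on both arrays the median was 0.19, with 15 above 0. In 16 of the 26 the ratio was smaller than the row SD at its level, against 63.9% of all genes above the limit.

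**Figure D1:**
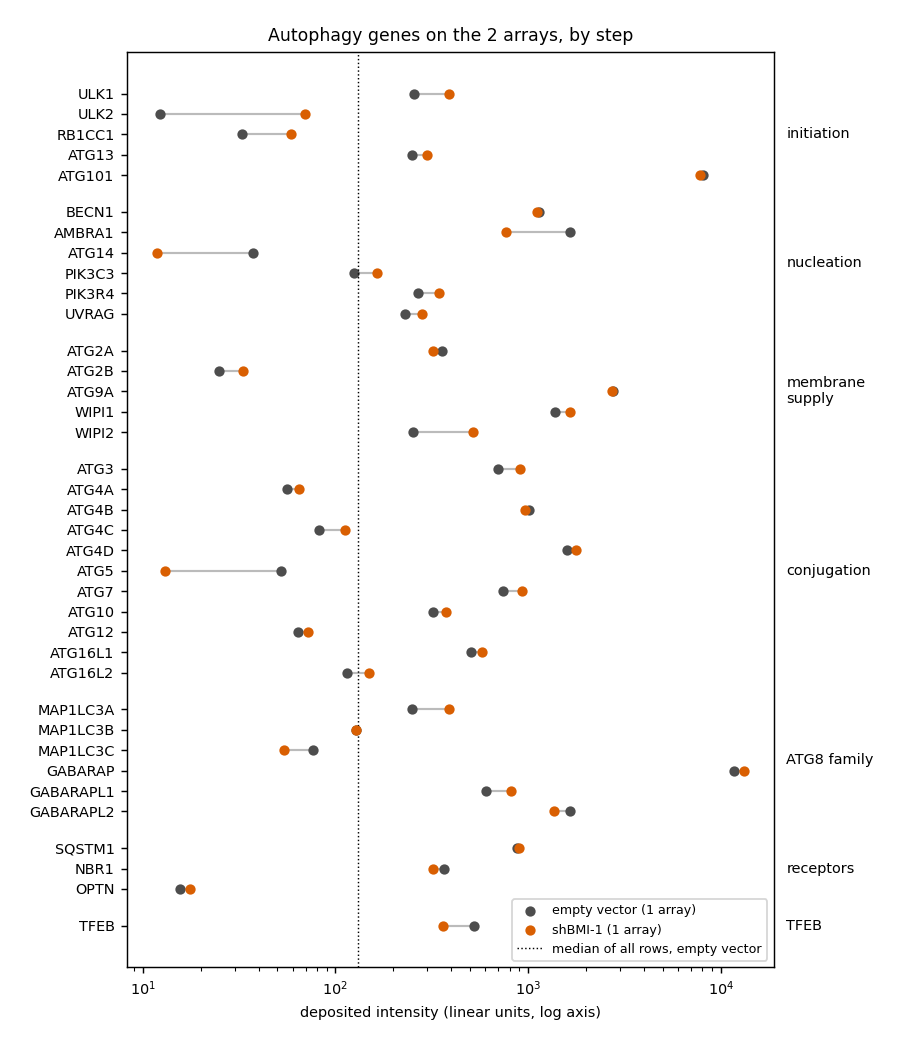
Deposited intensity of the 37 named autophagy genes (log axis) with the empty vector (grey) and with shBMI-1 (orange), 1 array each, sorted by step; the dotted line is the empty vector's median of all rows, 131.2. Most pairs lie close together, and AMBRA1 (1640 and 772) and WIPI2 (252 and 515) are the pairs past 2-fold among genes above the brightness limit.

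AMBRA1 had the largest difference of the autophagy genes with strong signals. It was singled out by that value, so its rank and its multiple of the row SD describe it and do not test it. AMBRA1 encodes a scaffold that binds Beclin 1 and brings ubiquitin ligase activity to ULK1, and it also steers cyclin D to degradation. It read 1640 in the empty vector culture and 772 in the shBMI-1 culture, which is 2.13-fold lower (log2 ratio -1.09). Both readings were bright, above 87.8% and 79.1% of the rows of their arrays. The difference was 4.38 times the row SD of 0.25 at that level, a spread between rows and not between cultures. Of 3972 genes at or above the 75th percentile on both arrays, 0.554% were past 2-fold, 0.327% higher and 0.227%, or 9 genes, lower. AMBRA1 had the 6th lowest ratio of these 3972. A limit on both arrays leaves out genes that fell below it on 1 array, so it lowers these shares. Of 4536 genes that reached the 75th percentile on at least 1 array, 1.04% were 2-fold higher and 1.12% lower. AMBRA1 had the 274th lowest ratio of the 8921 genes above the brightness limit. It rests on 1 row (RefSeq transcript NM_017749), so no other row of AMBRA1 was there to compare. RNA came from whole cultures, so less transcript per cell and fewer cells with the transcript cannot be told apart.

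WIPI2 was higher with the hairpin. Its protein binds PI3P on the forming membrane and recruits ATG16L1, which sets where ATG8 proteins are attached. It read 252 in the empty vector culture and 515 in the shBMI-1 culture (log2 ratio 1.03, row SD 0.42), from 1 row (RefSeq transcript NM_001033518). It lay just past 2-fold, and it fell short at 0.99 after quantile normalization, 0.97 after loess normalization and 0.90 with a pseudocount of 50. AMBRA1 stayed between -1.17 and -1.04 under the same changes. WIPI1, a paralog of WIPI2 with the same lipid preference, read 1370 and 1655 (0.27, row SD 0.25).

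**Figure D2:**
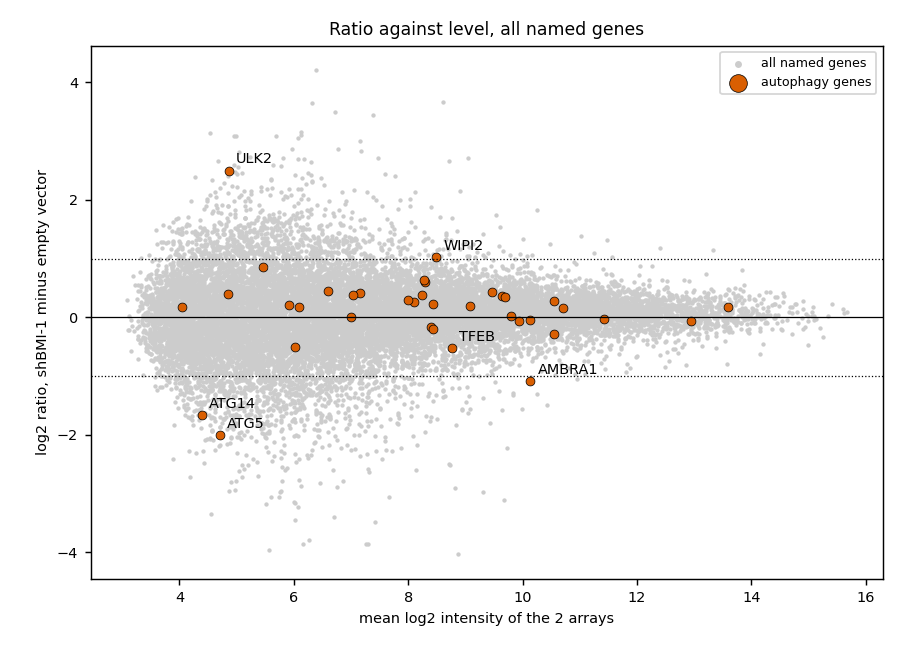
Log2 ratio (shBMI-1 minus empty vector) against the mean log2 intensity of both arrays for all 16583 named genes (grey) and the 37 autophagy genes (orange); dotted lines mark 2-fold. The spread of all genes narrows with level. AMBRA1 lies near its lower edge at a bright level, while ULK2, ATG14 and ATG5 are dim genes in the broad part of the cloud.

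In the initiation complex, 5 of 6 genes were named and 3 passed the brightness limit, with none past 2-fold. ULK1, the kinase that receives the nutrient signals of mTORC1 and AMPK, read 255 and 387 (0.60, row SD 0.42). The adaptor ATG13 read 251 and 299 (0.26), and its partner ATG101, which stabilises it, read 8070 and 7747 (-0.06). ULK1 had the highest ratio of the complex above the limit, and ATG101 hardly differed between the arrays.

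The dim initiation genes gave larger ratios. ULK2, a close relative of ULK1, read 12.3 and 69.5 (2.50, row SD 0.72), and the scaffold RB1CC1, also called FIP200, read 32.7 and 59.1 (0.85, row SD 0.80). Both readings of both genes were under the median of their arrays. With a pseudocount of 50, which shrinks ratios of dim genes, ULK2 had a ratio of 0.94 and RB1CC1 of 0.40.

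The nucleation step held AMBRA1 as its single gene past 2-fold above the limit. BECN1, the core of the kinase complex, read 1140 and 1110 (-0.04, row SD 0.25), so the gene for the partner of AMBRA1 was nearly level. PIK3C3, the catalytic subunit VPS34, read 124 and 165 (0.41, row SD 0.60). Its regulatory subunit PIK3R4 read 267 and 346 (0.37, row SD 0.42). UVRAG, which takes the place of ATG14 in the endosomal form of the complex, read 229 and 282 (0.30, row SD 0.60). These 3 ratios were positive and each was smaller than its row SD. ATG14, which directs the complex to autophagy, was dim, at 37.4 and 11.9 (-1.66, row SD 0.72), and its ratio was -0.50 with a pseudocount of 50.

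Above the limit in the membrane supply group, WIPI1 and WIPI2 had ratios above 0 and the lipid handlers had not. ATG9A, the scramblase that seeds the membrane, read 2766 and 2706 (-0.03, row SD 0.23). ATG2A, a lipid transfer protein, read 357 and 320 (-0.16, row SD 0.42). Its paralog ATG2B was dim at 24.9 and 33.1 (0.41, row SD 0.72).

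None of the conjugation enzymes above the limit was past 2-fold. Of 11 genes, 7 passed the limit, 6 with a positive ratio and 1 with a negative one, and the ratios ran from -0.06 for ATG4B to 0.38 for ATG16L2 with a median of 0.23. ATG16L2 passed on the array where it was higher, and the highest ratio of the others was 0.37, for ATG3. The SD of the 7 ratios, which leaves out the dim ATG5, was 0.16, beside 0.41 for the 26 autophagy genes and 0.57 for all genes above the limit. These SDs are not matched for signal, and 4 of the 7 genes reached the 75th percentile on both arrays, where ratios spread less. The SD of all genes also holds extremes from -4.03 to 4.22, while their quartiles were -0.17 and 0.32, beside 0.18 and 0.36 for the 7. ATG7, the E1-like enzyme that activates both ATG12 and ATG8 proteins, read 736 and 932 (0.34, row SD 0.30). ATG3, the E2-like enzyme for ATG8 proteins, read 699 and 905 (0.37, row SD 0.30), and ATG10, the E2-like enzyme for ATG12, read 320.3 and 375.4 (0.23). As deposited, the ATG7 and ATG3 ratios were slightly larger than the row SD, and that of ATG10 was within it. After loess normalization ATG7 (0.26) and ATG3 (0.29) were also within it, as was ATG7 (0.28) but not ATG3 (0.31) after quantile normalization.

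ATG16L1, which carries the ATG12-ATG5 conjugate to the membrane, read 504 and 577 (0.20), and its relative ATG16L2 read 115 and 149 (0.38, row SD 0.60). Of the ATG4 proteases, which trim ATG8 proteins and release them from lipid, ATG4B read 1006 and 963 (-0.06) and ATG4D read 1580 and 1760 (0.15). ATG4A (56.0 and 65.1) and ATG4C (82.3 and 113) were under the limit. ATG12, the ubiquitin-like modifier itself, was dim as well, at 64.1 and 72.2 (0.17). ATG5, its conjugation partner, read 52.49 and 13.03 (-2.01, row SD 0.72) and -0.70 with a pseudocount of 50.

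Of the 11 autophagy genes under the brightness limit, 3 were past 2-fold (ULK2, ATG14 and ATG5). Among all 7662 named genes under the limit 15.6% were past 2-fold, 7.77% higher and 7.83% lower. None of the 3 stayed past 2-fold with the pseudocount. For ATG14 and ATG5 no other outcome was possible, since their empty vector readings were 37.4 and 52.5. With the pseudocount, even a fall to 6.43, the lowest reading on the shBMI-1 array, would have been less than 2-fold. The pseudocount therefore cannot decide whether ATG14 and ATG5 were lower, and only for ULK2 was its outcome open. Background readings were not used here, so whether such dim values lay above background is unknown.

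**Figure D3:**
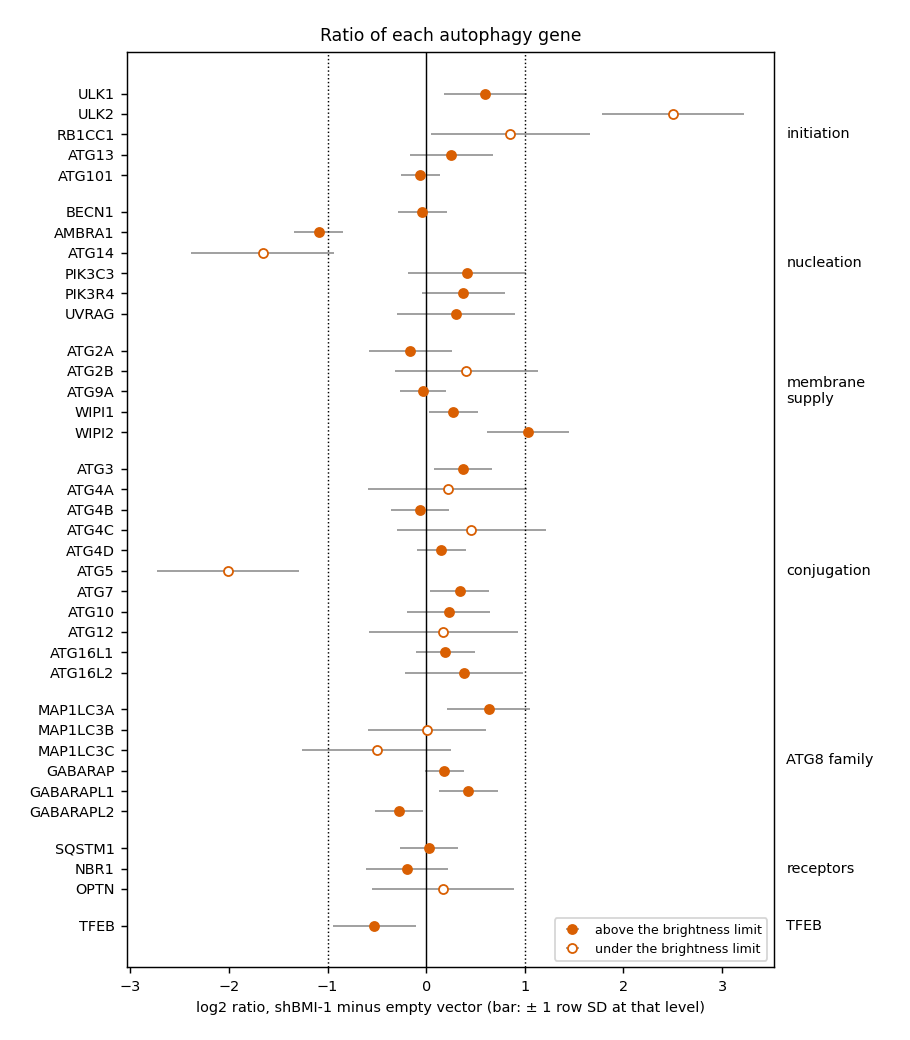
Log2 ratio (shBMI-1 minus empty vector) of each of the 37 autophagy genes by step. Bars show 1 row SD at the gene's level, taken from all genes with several rows, and open circles are genes under the brightness limit. The filled circles past the dotted 2-fold lines are AMBRA1 (-1.09) and WIPI2 (1.03), and the 7 filled conjugation genes lie between -0.06 and 0.38.

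The ATG8 family gave ratios on both sides of 0. MAP1LC3A, an LC3 protein, had the largest ratio at 0.63 (250 and 387 as the mean of 2 rows, row SD 0.42), but its rows disagreed. One row (RefSeq transcript NM_032514) read 299 and 340 (0.18), and the other (NM_181509) read 208 and 439 (1.08). The value of 0.63 is thus the mean of 2 unlike ratios. The row with 0.18 was the brighter on the empty vector array and by the mean of both arrays. The row with 1.08 was the brighter on the shBMI-1 array.

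MAP1LC3B, the LC3 protein most used as a marker of autophagosomes, read 127 and 129 (0.01), just under the limit. MAP1LC3C was dim at 76.9 and 54.3 (-0.50, row SD 0.76). In the GABARAP branch, GABARAP read 11610 and 13177 (0.18, row SD 0.20), GABARAPL1 read 606 and 815 (0.43, row SD 0.30), and GABARAPL2 read 1648 and 1361 (-0.28, row SD 0.25). GABARAPL1 and GABARAPL2 thus differed in opposite directions by more than the row SD. MAP1LC3B and GABARAPL1 have near-identical copies in the genome that could share their signals.

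Of the 3 cargo receptors in the list, SQSTM1 and NBR1 passed the limit and both had ratios smaller than the row SD. SQSTM1, which encodes p62 and is itself degraded by autophagy, read 876 and 893, a ratio of 0.03 that was -0.04 after quantile and -0.05 after loess normalization. NBR1, a receptor that works with p62, read 368 and 321 (-0.20, row SD 0.42), and its rows had ratios of -0.19 and -0.20. OPTN, a receptor for damaged mitochondria and bacteria, was dim at 15.6 and 17.5 (0.17). NBR1 was thus the autophagy gene whose rows gave the same value, and MAP1LC3A the other with 2 rows.

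TFEB, a transcription factor that drives many lysosome and autophagy genes, was lower with shBMI-1. It read 523 with the empty vector and 363 with the hairpin, a log2 ratio of -0.53 (row SD 0.42), from 1 row and short of 2-fold. Its relative TFE3 read 444 and 466 (0.07). MITF, of the same family, was dim at 31.99 and 72.76.

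Among genes with both arrays at or above the 75th percentile, 13 were autophagy genes. Of these, 12 had a ratio within 0.5 of 0, AMBRA1 being the exception, and over all 3972 such genes the number was 3642. GABARAPL1 had the highest ratio of the 13 (0.43) and GABARAPL2 the next lowest after AMBRA1 (-0.28). By 1.5-fold instead of 2-fold, 3 autophagy genes above the brightness limit were higher (WIPI2, MAP1LC3A and ULK1) and 1 was lower (AMBRA1), beside 10.1% and 8.45% of all genes.

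Promoters of the autophagy genes were read from the RefSeq promoter table of GRCh38.p14, which spans 250 bases before to 50 bases after each start. It held 45 starts of 35 of the 39 genes. Vertebrate Polycomb complexes are known to bind CpG-rich promoters, so the density of CG was counted. GC content was over 50% with a CpG observed-to-expected ratio over 0.6 at 36 of the 45 starts (80%), at 46.8% of all 35116 starts and at 59.8% of starts of protein-coding genes. The median ratio of observed to expected CpG was 0.85 for the autophagy starts and 0.74 for protein-coding genes. AMBRA1 and WIPI2, the genes past 2-fold in opposite directions, each had a CpG-rich start and a CpG-poor start. The last 80 bases before each start are printed 5′ to 3′ with every CG in capitals. CG is its own reverse complement, and 96.0% of all promoters hold at least 1. The array rows do not tell which start was used.
AMBRA1, first start, chr11:46594024-46594103, minus strand: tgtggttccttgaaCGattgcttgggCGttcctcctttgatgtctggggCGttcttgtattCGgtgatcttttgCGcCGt
AMBRA1, inner start, chr11:46587445-46587524, minus strand: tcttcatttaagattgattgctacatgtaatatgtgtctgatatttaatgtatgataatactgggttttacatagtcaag
WIPI2, first start, chr7:5190153-5190232, plus strand: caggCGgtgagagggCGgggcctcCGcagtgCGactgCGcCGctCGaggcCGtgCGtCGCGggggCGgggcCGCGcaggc
WIPI2, inner start, chr7:5214189-5214268, plus strand: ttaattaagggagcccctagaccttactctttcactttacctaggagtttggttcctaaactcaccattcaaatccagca

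The first starts hold 6 CG in AMBRA1 and 14 in WIPI2 within these 80 bases, and the inner starts hold 0. Over the whole window the observed-to-expected ratio was 1.01 and 0.31 for the AMBRA1 starts and 0.92 and 0.48 for those of WIPI2. A CpG-rich start was thus common to the gene that was lower and the gene that was higher, as it was to most of the list.

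CACGTG, the core of the motif that TFEB and its relatives bind, was also searched. It is its own reverse complement, so both strands are covered. It was present at 3 of the 45 autophagy starts (6.67%), beside 7.26% of all starts and 8.34% of those of protein-coding genes. The 3 genes were ATG3, ATG14 and ULK3, and the stretches of 30 bases with the motif in capitals are shown for the 2 that were measured.
ATG3, chr3:112561963-112561992, minus strand: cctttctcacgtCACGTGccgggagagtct
ATG14, chr14:55411834-55411863, minus strand: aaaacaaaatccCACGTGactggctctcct
ATG3 had a ratio of 0.37 and ATG14, a dim gene, one of -1.66, while the TFEB ratio was -0.53. A match of letters is a description of the window and not a site.

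The other genes of the pathway were taken from lists written by role. Of 72 such genes 69 were named and 51 passed the brightness limit, with a median ratio of 0.12, 35 above 0 and 16 below (31 above 0 after loess or quantile normalization). Past 2-fold were 2 higher (STX17 and TOLLIP) and 1 lower (CALCOCO2), again close to the 6.78% of all genes. STX17, the SNARE that fuses the closed autophagosome with the lysosome, read 127 and 362 (1.51, row SD 0.60), and it passed the brightness limit on the shBMI-1 array alone. TOLLIP, a ubiquitin-binding adaptor, read 464 and 988 (1.09, row SD 0.30). CALCOCO2, the receptor also called NDP52, read 325 and 145 (-1.17, row SD 0.60), and its ratio was -0.94 with a pseudocount of 50. Of the 18 genes under the limit, 4 were past 2-fold in 1 row each: TMEM41B at -1.21, and CCPG1 (1.01), LAMTOR3 (1.04) and MITF (1.19). Among all 7662 named genes under the limit the share was 15.6%, so this count too is near the background.

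Among the selective receptors 11 passed, with a median of 0.36, and CALCOCO2 and TOLLIP were their lowest and highest. The fusion genes had a median of 0.14 over 12 genes, from -0.12 for VPS33A, a tethering complex subunit, to STX17. The factors acting with the class III kinase and on the early membrane had a median of 0.15 over 10 genes, from -0.78 for the kinase gene DAPK1 to 0.58 for TP53INP2.

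The nutrient-sensing kinases and their regulators upstream of ULK1 had a median of -0.09 over 15 genes, and none of them was past 2-fold. MTOR, the kinase that holds ULK1 inactive when nutrients are present, had the highest ratio (605 and 977, 0.69, row SD 0.30). RRAGC, a GTPase that brings mTORC1 to the lysosome, had the lowest (684 and 395, -0.79, row SD 0.30). Of 7 transcription factor genes 3 passed, with ratios from 0.07 for TFE3 to 0.17 for FOXO3.

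**Figure D4:**
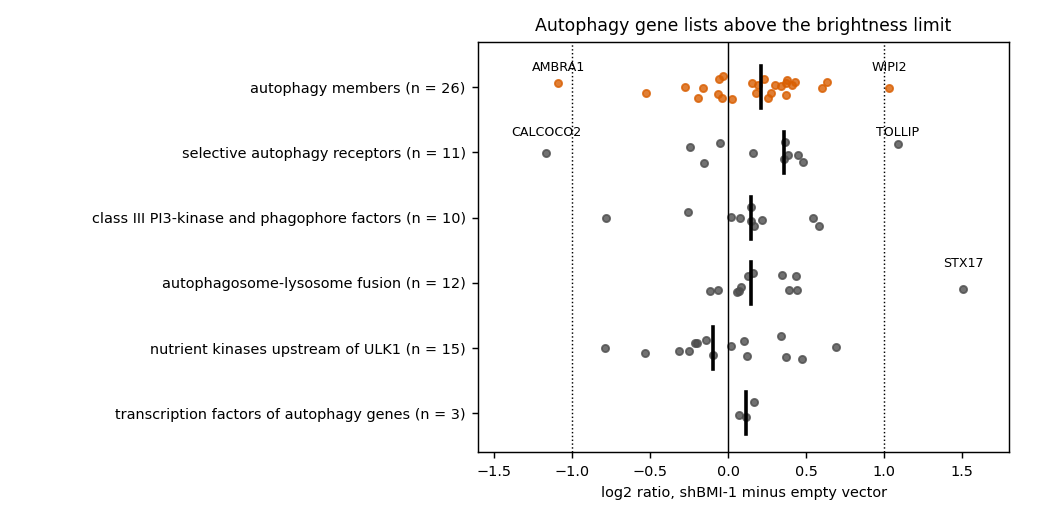
Log2 ratio (shBMI-1 minus empty vector) of the 26 autophagy genes above the brightness limit (orange) and of 51 other pathway genes in 5 lists (grey); each point is a gene, black bars are medians, dotted lines mark 2-fold, and vertical scatter is for display only. Medians run from -0.09 for the nutrient kinases to 0.36 for the selective receptors, and 5 genes in all lie past 2-fold.

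**Figure D5:**
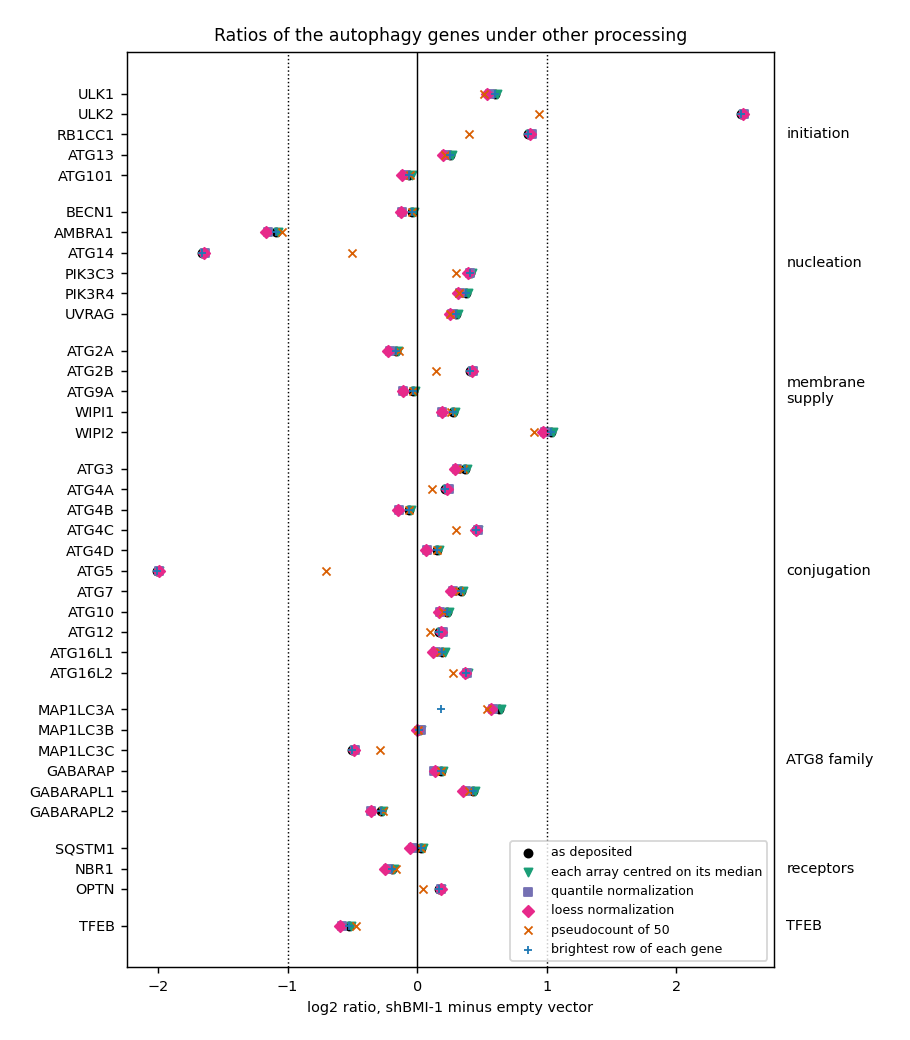
Log2 ratio (shBMI-1 minus empty vector) of each autophagy gene as deposited and under 5 other ways of processing, marked by symbol. The points of most genes overlap; ULK2, ATG14 and ATG5 move toward 0 with a pseudocount of 50, and MAP1LC3A moves to 0.18 with its brighter row.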

How the data were processed

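RNA of 2 A375 cultures was measured on single-colour NimbleGen arrays from Cy3-labelled double-stranded cDNA, per the labels' protocols. The deposited table holds 1 linear intensity for each of 45033 rows and array; the authors' scanner software, probe summary and normalization are not given in the sources at hand. The precision is limited by the number of arrays, 1 for each group.

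A gene symbol of the platform annotation was carried by 18188 rows, and 26845 were unnamed here. The log2 of each intensity was taken with no pseudocount or further scaling, and rows of the same symbol were averaged, which gave 16583 genes. The brightness limit, the row SD and the 2-fold threshold are defined in the report. All 39 list genes are accounted for; of the other pathway lists, genes past 2-fold and the highest and lowest ratios above the brightness limit are named, with further genes chosen after their values were seen. The gene lists and members were chosen with earlier results of these data known. The procedure was tested on simulated data.

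Alternatives were median centring, quantile and loess normalization (span 0.3, 3 iterations), the brightest row of a gene, a pseudocount of 50, added RefSeq names, other brightness limits and thresholds of 1.5-fold and 3-fold. A limit on both arrays, and the ratios of the 3 other pathway genes past 2-fold under the alternatives, were added after seeing the data. Python 3.11.15 with numpy 2.4.6, pandas 2.3.3, statsmodels 0.14.6 and matplotlib 3.10.9 was used.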

Additional observations from a re-analysis of the deposited data

How the results depend on the processing

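Among genes above the brightness limit, AMBRA1 was the single autophagy gene at least 2-fold lower in every scaling and with the pseudocount. The count of genes at least 2-fold higher was 0 after quantile normalization, after loess normalization, with a pseudocount of 50, with a brightness limit at the 75th percentile and at 3-fold, 2 with no brightness limit (ULK2 and WIPI2) and 3 at 1.5-fold. The count of genes at least 2-fold lower was 3 with no brightness limit (AMBRA1, ATG14 and ATG5) and 0 at 3-fold. WIPI2 itself was under the 75th percentile on both arrays. The median ratio of the autophagy genes was 0.15 after loess normalization, 0.16 after quantile normalization, 0.09 over the 14 genes that reached the 75th percentile, where that of all genes was also 0.09, 0.19 over 24 genes with the limit reached on both arrays, and 0.14 as a mean. Of 222 ratios of single autophagy genes under 6 alternatives, 218 moved by less than the row SD; the 4 others were ULK2, ATG14 and ATG5 with the pseudocount and MAP1LC3A by its brighter row. SQSTM1 was the only one of 37 genes whose ratio changed sign. RefSeq names added 678 rows, 0 of them for these genes. No paired analysis was possible because each group had 1 array. Dim genes limit what could be read, since the row SD under an intensity of 128 was at least 0.72.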
